A study of Mus musculus with 4 samples.

Results

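The genes described here encode 5 secreted ADAMTS proteases (*Adamts1*, *Adamts2*, *Adamts4*, *Adamts5* and *Adamts12*), the 4 tissue inhibitors of metalloproteinases (*Timp1* to *Timp4*) and the membrane-anchored inhibitor *Reck*. They were selected by name and not by a rule on their values, although earlier results of these data were known. They are 10 of the 45802 gene symbols in the deposited table. All 10 had a value in every library and were among the 14415 genes tested. Libraries were made from periosteal stromal cells of male Pdgfrα-mTmG mice, in which *Pdgfra*-driven CreER switches a membrane tdTomato reporter to membrane GFP after tamoxifen. The mice received tamoxifen at 2 months of age (150 mg/kg per day for 5 days), and hindlimb cells were taken 14 days later, at 9 to 10 weeks. After 1 passage in medium holding 10 ng/mL bFGF, cells were sorted as CD31-CD45-Ter119- into PDGFRα reporter+ (GFP+) and PDGFRα reporter- (tdTomato+) cells, 2 libraries each. The populations came from mice of 1 genotype with the same tamoxifen and culture, and differ in whether the reporter allele had recombined. Each library was a pool of 3 to 6 mice per the labels, whereas the study's methods give a larger number. The reporter marks cells that had used the *Pdgfra* promoter at the time of tamoxifen, not those with the transcript at sorting.

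ADAMTS proteases are zinc metalloproteinases with thrombospondin repeats that bind them to the extracellular matrix. They trim procollagens and cleave the large proteoglycans aggrecan and versican, steps that belong to the turnover of periosteum, cartilage and healing bone. The TIMPs occupy the active site of metalloproteinases. TIMP3 stays bound to the matrix and is the family member best known for inhibiting the aggrecanases, whereas RECK sits on the cell surface and restrains several matrix metalloproteinases (MMPs).

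The deposited values were log2 expression values, quantile normalized by the authors so that each library had the same range (−10.07 to 11.73) and median (1.48). The linear unit under the logarithm and the sequencing depth are not given in the sources used here, so that no counting error was computed and levels are compared between libraries, not between genes. The table numbers the libraries of each population 2 and 3, whereas the labels number replicates 1 and 2, and libraries are named here by population and table number. Each symbol of the stromal list of 9 genes had a value in all libraries, and *Pdgfra* itself had 7.78 and 7.62 in reporter+ and 7.87 and 7.44 in reporter- libraries 2 and 3. Macrophage transcripts were also present. Of 12 macrophage genes 11 were measured in all libraries and all 11 had a higher mean in reporter+ cells, 8 of them without overlap between the populations (7.59% of all genes). The summed level of the macrophage list was 7.93 and 8.16 in reporter+ and 6.61 and 7.51 in reporter- libraries on the log2 scale, and *Fcgr1* was blank in reporter- library 2. Of 7 endothelial genes 6 were measured in all libraries, 5 of them with lower means in reporter+ cells and 4 without overlap (8.1% of all genes), with summed levels of −1.66 and 0.27 against 0.24 and 1.95. *Tie1* was blank in reporter+ library 3. Of 9 mural and smooth muscle genes 8 had lower means in reporter+ cells and 5 did not overlap (8.1% of all genes), with summed levels of 3.99 and 4.25 against 4.90 and 5.00. In chondrocyte genes 3 of 5 were measured and 0 were without overlap. In osteoblast genes 5 of 6 were measured and 2 were higher without overlap (7.59% of all genes).

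Promoter sequences are shown for 4 of the 10 genes. *Timp1*, *Timp3* and *Timp4* each lie inside a synapsin gene on the opposite strand and had different patterns across the libraries, and *Adamts1* was the only one with a match to the TATA box. RefSeq (GRCm38.p6) gave the promoter of 8 of the genes, and *Adamts4* and *Adamts5* had no entry in the table used. Each sequence is written 5′ to 3′ on the strand of its gene and covers the 250 bases before the RefSeq start, except that *Timp3* is cut to 210 bases where the first GENCODE transcript begins. The windows are chrX:20869916-20870165 for *Timp1* (plus strand), chr10:86300162-86300371 for *Timp3* (plus strand), chr6:115252206-115252455 for *Timp4* (minus strand) and chr16:85803114-85803363 for *Adamts1* (minus strand). None of these windows holds an annotated exon of any gene. Capitals mark matches to a motif searched on both strands.
Timp1: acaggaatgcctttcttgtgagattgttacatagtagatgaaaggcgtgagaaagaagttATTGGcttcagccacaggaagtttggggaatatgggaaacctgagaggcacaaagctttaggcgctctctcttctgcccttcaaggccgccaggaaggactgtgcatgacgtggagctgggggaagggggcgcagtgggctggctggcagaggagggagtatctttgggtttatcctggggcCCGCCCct
Timp3: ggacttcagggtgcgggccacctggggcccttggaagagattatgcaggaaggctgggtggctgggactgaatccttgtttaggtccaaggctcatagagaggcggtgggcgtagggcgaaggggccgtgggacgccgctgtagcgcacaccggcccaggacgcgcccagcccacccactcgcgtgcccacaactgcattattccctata
Timp4: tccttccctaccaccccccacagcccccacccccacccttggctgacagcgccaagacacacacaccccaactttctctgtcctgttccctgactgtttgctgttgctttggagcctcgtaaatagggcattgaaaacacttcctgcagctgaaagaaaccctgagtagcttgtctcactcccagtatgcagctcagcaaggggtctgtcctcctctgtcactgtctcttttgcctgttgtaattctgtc
Adamts1: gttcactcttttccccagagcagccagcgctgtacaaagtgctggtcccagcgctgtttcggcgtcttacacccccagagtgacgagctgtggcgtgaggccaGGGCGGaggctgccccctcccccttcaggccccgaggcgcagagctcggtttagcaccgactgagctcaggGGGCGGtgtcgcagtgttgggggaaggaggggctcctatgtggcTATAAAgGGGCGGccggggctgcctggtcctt

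In the *Adamts1* promoter, the TATA box letters TATAAA began 32 bases before the start and were followed by the GC box letters GGGCGG at 25 bases. Of 32851 promoters of 250 bases in the RefSeq table, 12.4% held TATAAA, and *Adamts1* was the only one of the 8 genes that did. GGGCGG was present in 32.7% of all promoters and in *Adamts1*, *Adamts2*, *Timp1*, *Timp2*, *Timp3* and *Reck*. In *Timp3* the match began 15 bases before the start, in the part not printed. The CCAAT box (CCAAT, in 33.8% of promoters) was found in *Timp1*, *Timp2* and *Reck*. The AP-1 letters TGANTCA, present in 6.75% of promoters, occurred in none of the 8 windows. Such matches describe the letters of a window and do not show that a factor binds there.

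The comparison of reporter+ with reporter- cells asks how the labeled periosteal progenitors differ from the other periosteal stromal cells. None of the 10 genes differed between the populations in limma after Benjamini-Hochberg adjustment over all 14415 genes. The adjusted p was 1 for each of them and the unadjusted p ranged from 0.288 to 0.992. Over all genes, 0% passed the adjusted threshold of 0.05 and 0.909% had an unadjusted p under it. Log2 fold changes, given throughout as reporter+ minus reporter-, ran from −0.72 for *Timp4* to 0.36 for *Adamts5*. The median of the 10 genes was 0.014, beside −0.0035 over all genes tested, and none passed 1 in size, which 4.25% of all genes did. Both reporter+ libraries lay above both reporter- libraries for 1 of the 10 genes, *Timp1*, and below them for 0. Over all genes 7.59% were higher in this way and 8.1% lower. With 2 libraries against 2, the smallest two-sided p of an exact permutation test is 0.333, so that no such test was made for single genes. In bulk RNA, fewer cells of a type and less RNA per cell cannot be told apart.

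**Figure D1:**
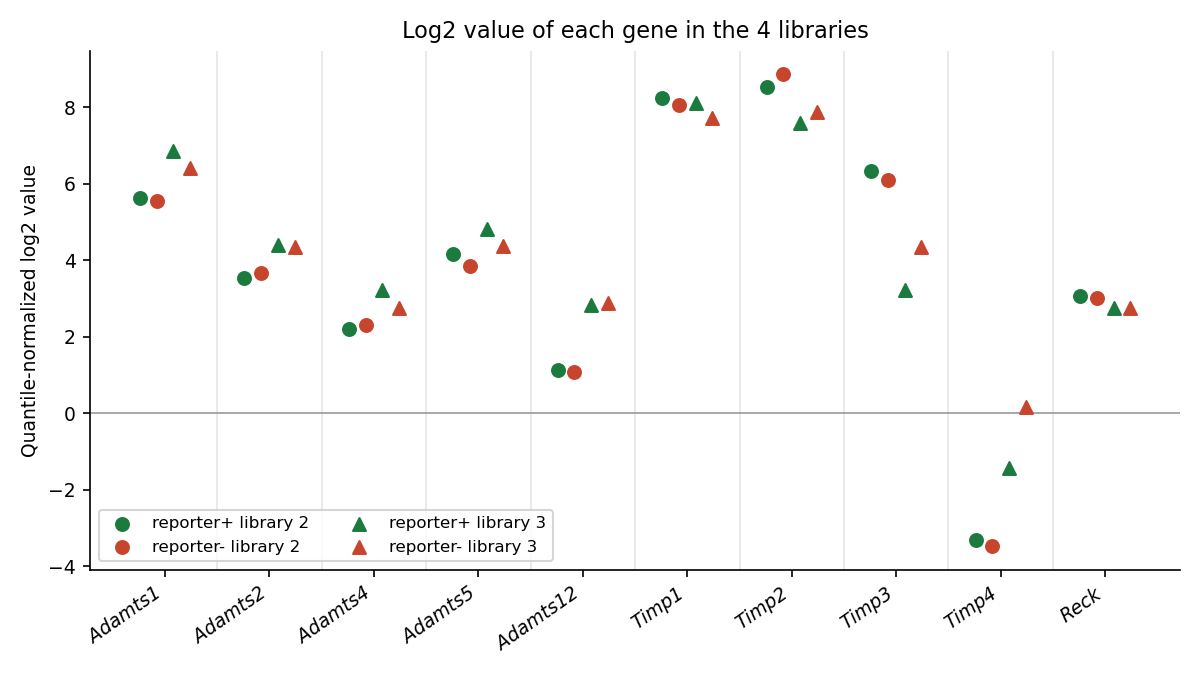
Quantile-normalized log2 value (vertical axis) of each gene in the 4 libraries, with green for reporter+, red for reporter-, circles for libraries numbered 2 and triangles for libraries numbered 3. Only for *Timp1* do both green points lie above both red points.

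Among the aggrecanases, *Adamts5*, the main aggrecan-degrading protease of mouse cartilage (chromosome 16, 85856173 to 85901828), had log2 values of 4.16 and 4.81 in reporter+ libraries 2 and 3 and of 3.86 and 4.38 in reporter- libraries 2 and 3. It was higher in reporter+ cells within each number, but reporter- library 3 lay above reporter+ library 2. The log2 fold change was 0.36 (SE 0.31, 95% interval −0.46 to 1.19), made up of 0.30 in libraries numbered 2 and 0.42 in those numbered 3.

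*Adamts1*, a protease of versican and aggrecan that lies beside *Adamts5* on chromosome 16 (85793827 to 85803113), had 5.63 and 6.86 in reporter+ and 5.54 and 6.41 in reporter- libraries. Both libraries numbered 3 were above both numbered 2, so that the populations overlapped. The populations differed by 0.089 in number 2 and 0.45 in number 3 (log2 fold change 0.27, SE 0.53).

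*Adamts4*, the other aggrecanase (chromosome 1, 171250421 to 171260637), had 2.20 and 3.23 in reporter+ and 2.32 and 2.76 in reporter- libraries. Its highest and its lowest value were both in reporter+ cells. It was lower in reporter+ cells in number 2 (−0.11) and higher in number 3 (0.48), giving a log2 fold change of 0.18 (SE 0.40).

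The procollagen N-proteinase *Adamts2*, which removes the amino-terminal propeptide of fibrillar collagens (chromosome 11, 50602084 to 50807573), had 3.54 and 4.40 in reporter+ and 3.67 and 4.34 in reporter- libraries. *Adamts12*, a protease of cartilage oligomeric matrix protein (chromosome 15, 11064790 to 11349231), had 1.13 and 2.82 in reporter+ and 1.09 and 2.88 in reporter- libraries. For both genes the populations nearly coincided within each number, whereas the numbers were apart. The log2 fold change of *Adamts2* was −0.037 (SE 0.39), with −0.13 and 0.056 in numbers 2 and 3. That of *Adamts12* was −0.0084 (SE 0.84), with 0.045 and −0.062. The 95% intervals were −1.07 to 0.99 and −2.25 to 2.23, so that this fit left differences of 1 in size for *Adamts2* and of 2 for *Adamts12* possible. Its spread includes the difference between numbers. In a fit that also held the number, the intervals were −0.31 to 0.24 and −0.35 to 0.34. The labels do not give such a pairing.

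*Timp1*, a secreted inhibitor of most MMPs (chromosome X, 20870166 to 20874735), had log2 values of 8.24 and 8.10 in reporter+ and 8.06 and 7.71 in reporter- libraries. The lowest reporter+ value was above the highest reporter- value by a small margin. Its log2 fold change was 0.29 (SE 0.24, 95% interval −0.35 to 0.93), with 0.18 and 0.40 in numbers 2 and 3. The macrophage list was higher in the same libraries, with a median log2 fold change of 1.00, and their part in the difference of *Timp1* was not tested. *Syn1*, which contains *Timp1*, shares no exon with it. Its values went the other way, at −2.82 and −3.41 in reporter+ and −2.22 and −2.95 in reporter- libraries.

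*Timp2*, which inhibits MMPs and also takes part in the activation of pro-MMP2 by MMP14 (chromosome 11, 118301069 to 118355740), had 8.53 and 7.59 in reporter+ and 8.86 and 7.88 in reporter- libraries. Within each number the reporter+ library was the lower one, by −0.33 and −0.28. The libraries numbered 2 were above those numbered 3, so that the populations overlapped (log2 fold change −0.31, SE 0.50).

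*Timp3*, the matrix-bound inhibitor of aggrecanases (chromosome 10, 86300372 to 86349506), had 6.34 and 3.22 in reporter+ and 6.10 and 4.33 in reporter- libraries. It was the most variable gene of the 10 in reporter+ cells (SD 2.21, n = 2). The populations differed by 0.24 in number 2 and by −1.11 in number 3, which gave a log2 fold change of −0.43 (SE 1.20). *Syn3*, which contains *Timp3* on the other strand and shares exonic sequence with it in the annotation, had −6.40 and −8.11 in reporter+ and −6.50 and −8.07 in reporter- libraries. The libraries were stranded, and whether counting used the strand is not given in the sources used here.

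*Timp4*, the TIMP of the narrowest tissue range (chromosome 6, 115241892 to 115252205), had −3.30 and −1.43 in reporter+ and −3.47 and 0.17 in reporter- libraries. These were low levels, all below the library median of 1.48. In libraries numbered 2 they also lay below the lower quartile of −1.47, so that its differences are less certain. Reporter- library 3 stood above the other 3 libraries. As for *Timp3*, the sign differed between the numbers, with 0.16 in number 2 and −1.60 in number 3 (log2 fold change −0.72, SE 1.43). Opposite signs with a change of over 1 between the numbers were found for 2 of the 10 genes, *Timp3* and *Timp4*, and for 8.62% of all genes. Each number holds 1 library of a population, so that this change could not be tested. *Syn2*, which contains *Timp4* and overlaps its exons in the annotation on the other strand, was blank in reporter- library 2 and had −7.00, −5.37 and −4.75 in the other libraries. For *Timp4* as for *Syn2*, reporter- library 3 was highest.

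*Reck* (chromosome 4, 43875530 to 43944806) had 3.07 and 2.76 in reporter+ and 3.00 and 2.76 in reporter- libraries. Its log2 fold change of 0.037 had a standard error of 0.20 and an interval of −0.49 to 0.56. Within numbers 2 and 3 the populations differed by 0.069 and 0.0055. RECK also acts with the receptor ADGRA2 in Wnt7 signaling, and of the 4 genes listed for this role *Wnt7a* was blank in all libraries. *Adgra2* and the receptor gene *Fzd4* had log2 fold changes of −0.19 and −0.021. *Wnt7b* was near the bottom of the scale, at −6.06 and −4.75 in reporter+ and −4.04 and −3.03 in reporter- libraries, a difference without overlap (−1.86, SE 0.80, adjusted p = 1 in limma).

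Counted over the 10 genes, the populations differed in one direction within both numbers for 5, namely *Adamts1*, *Adamts5*, *Timp1* and *Reck* upward and *Timp2* downward. Over all genes this share was 46.8%. The 4 of 10 genes higher in both numbers compare with 22.1% of all genes, and the 1 lower in both with 24.8%.

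**Figure D2:**
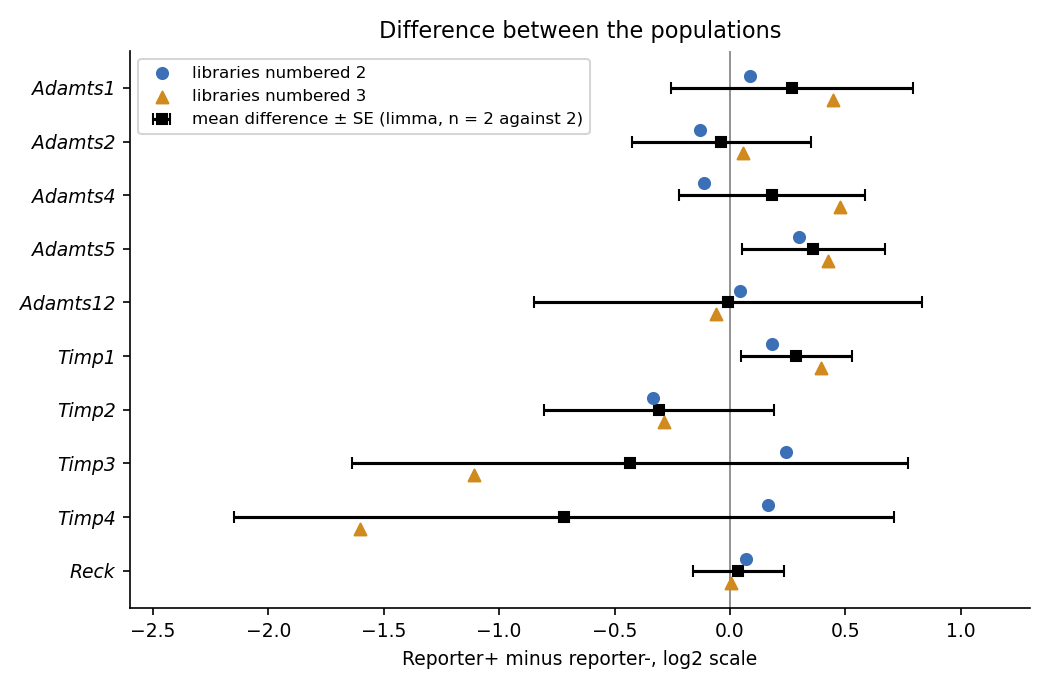
Reporter+ minus reporter- on the log2 scale (horizontal axis) for each gene, as the mean difference with its SE from limma (black squares and bars, 2 libraries against 2) and as the difference within libraries numbered 2 (blue circles) and 3 (orange triangles). *Timp3* and *Timp4* lie right of 0 in number 2 and left of it in number 3, at −1.11 and −1.60.

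The 10 genes varied more between the library numbers than between the populations. The number is not a group of the study, and the differences between numbers are given as a description without a test. Libraries numbered 3 differed from those numbered 2 in one direction in both populations for 10 of 10 genes, which held for 73.8% of all genes. The difference between numbers, averaged over the populations, was larger in size than the log2 fold change for 9 of 10 genes, all but *Timp1*, and for 75.7% of all genes. Its median size was 0.86 over the 10 genes and 0.31 over all genes tested.

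The 5 proteases were all higher in libraries numbered 3, and 3 of the 4 TIMPs and *Reck* were lower there. Counted in both populations, 6 of the 10 genes were higher in number 3 and 4 lower. Of the 14415 genes tested, 5927 were higher in this way and 4716 lower. *Adamts12* was higher by 1.69 in reporter+ and 1.80 in reporter- cells. *Adamts1* was higher by 1.23 and 0.87, and *Adamts4* by 1.03 and 0.44. The smaller differences of *Adamts2* (0.86 and 0.67) and *Adamts5* (0.65 and 0.53) had the same direction. On the inhibitor side, *Timp3* had differences of −3.12 in reporter+ and −1.76 in reporter- cells. *Timp2* had −0.93 and −0.98, *Timp1* −0.14 and −0.36, and *Reck* −0.31 and −0.25. *Timp4* was the exception among the inhibitors, with 1.87 in reporter+ and 3.64 in reporter- cells. Its levels were low (−3.47 to 0.17), where log2 differences are less certain. A difference above 1 in both populations was seen for *Adamts12* and *Timp4* (5.35% of all genes) and one below −1 for *Timp3* (4.36%), so that 3 of 10 genes passed 1 in either direction, beside 9.71% of all genes. The summed level of the chondrocyte list was also lower in libraries numbered 3, at 3.54 and 1.53 in reporter+ and 3.92 and 2.37 in reporter- libraries. The sums of the stromal, endothelial, macrophage, mural and osteoblast lists were higher there in both populations. Apart from the macrophage list, each of these lists held genes higher and genes lower in number 3 in both populations. In the macrophage list *Cd68*, *C1qa*, *C1qb* and *C1qc* were lower in number 3 in reporter+ cells alone, and *Cd14* in reporter- cells alone. The other macrophage genes measured were higher in both. In the stromal list 5 of 9 genes were lower in number 3 in both populations, as were *Cspg4* and *Des* of the mural and *Runx2* of the osteoblast list. Of the 6 measured endothelial genes *Kdr*, *Tek* and *Emcn* were higher in number 3 in both populations, *Tek* by 3.05 and 3.60, whereas *Vwf* was lower in both (−1.12 and −0.35). Of the chondrocyte genes *Matn1* was blank in all libraries, and *Acan* and *Col2a1* are also counted among the substrates. The part of these lists in the differences of *Timp3* and *Timp4* was not tested.

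**Figure D3:**
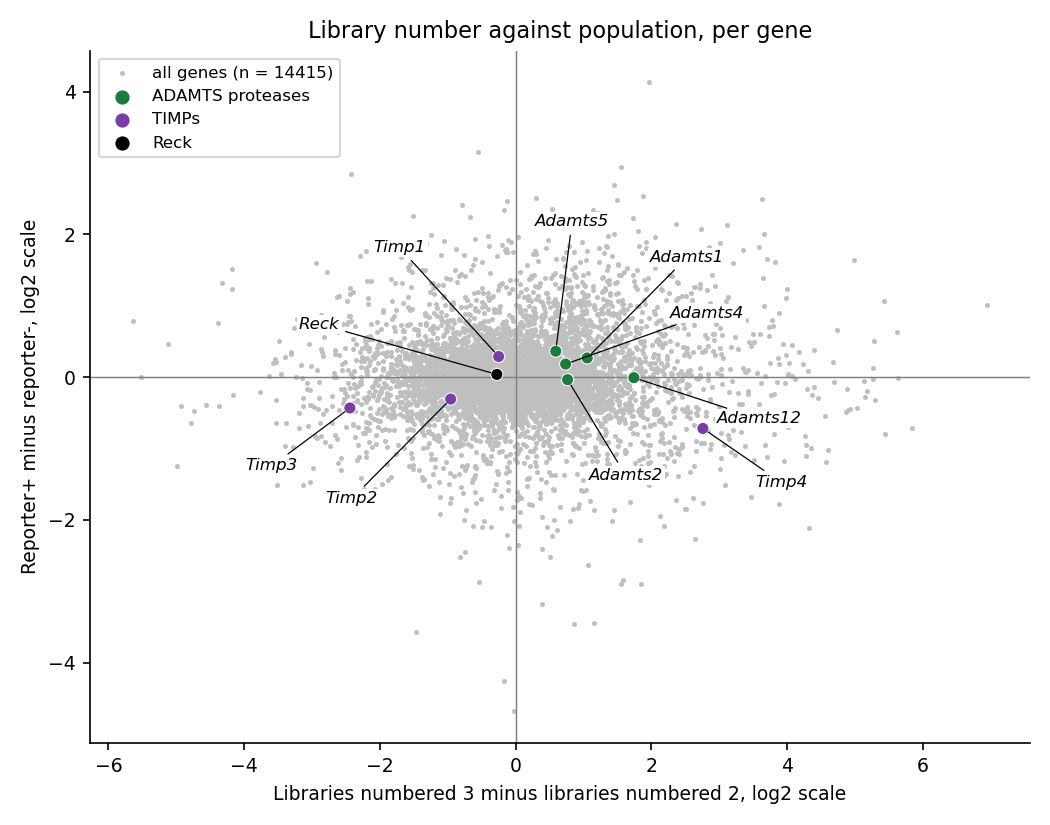
Difference between libraries numbered 3 and 2 averaged over both populations (horizontal axis) against the log2 fold change between the populations (vertical axis), both on the log2 scale, for the 14415 genes tested (gray) and the 10 genes (colored). The ADAMTS genes lie to the right of 0, *Timp1*, *Timp2*, *Timp3* and *Reck* to the left, and *Timp4* far to the right at 2.76.

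Since TIMP3 inhibits the aggrecanases, the log2 value of each was also taken relative to *Timp3* within each library, a comparison chosen after the values were seen. The zero point of such a difference depends on the unit and the gene length, and only its change between libraries is described. For *Adamts5* minus *Timp3* it was −2.19 and 1.58 in reporter+ and −2.24 and 0.048 in reporter- libraries 2 and 3. It was thus higher in number 3 by 3.77 in reporter+ and 2.29 in reporter- cells. Between the populations it differed by 0.056 in number 2 and by 1.54 in number 3. *Adamts4* minus *Timp3* differed between the populations by −0.36 and 1.59, and *Adamts1* minus *Timp3* by −0.16 and 1.56, in numbers 2 and 3. The 3 differences share the values of *Timp3* and are not independent.

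Of the 14 other ADAMTS protease genes of the mouse examined, 12 were measured in all libraries, *Adamts20* was blank in reporter+ library 2 and *Adamts18* was blank throughout. None passed the test in limma (0 higher, 0 lower), and the median log2 fold change was −0.10. Leaving out 1 library gave medians from −0.64 (without reporter- library 2) to 0.65 (without reporter+ library 2). *Adamts3*, a procollagen N-proteinase related to *Adamts2*, was the only one whose populations did not overlap, beside 15.7% of all genes. It had 0.22 and 1.10 in reporter+ and −0.081 and −0.39 in reporter- libraries (log2 fold change 0.89, SE 0.41). The largest difference in size was that of *Adamts16* (−1.38, SE 1.07), with 0.43 in number 2 and −3.18 in number 3. Its values were at the low end of the scale (−6.50 to −3.32). *Adamts14*, the third protease of the procollagen group, had 0.98 and 0.58 in reporter+ and 0.89 and 1.60 in reporter- libraries, a log2 fold change of −0.47 (SE 0.35). For 4 of these 12 genes the libraries numbered 3 were higher by over 1 in both populations, beside 5.35% of all genes. These were *Adamts8*, *Adamts9*, *Adamts15* and *Adamts19*. *Adamts8* (−5.72 to −2.47) and *Adamts19* (−8.85 to −4.07) were at the low end of the scale. *Adamts6* and *Adamts10* were lower there in both populations, by less than 1. *Adamts15*, a further hyalectan protease, had −0.76 and 4.46 in reporter+ and −0.77 and 4.53 in reporter- libraries, so that the numbers were 5.22 and 5.30 apart and the populations differed by 0.015 and −0.070 within them. *Adamts9*, a versican protease, had −0.77 and 2.42 in reporter+ and −1.16 and 1.98 in reporter- libraries.

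Of the 7 ADAMTS-like genes, which encode matrix proteins with thrombospondin repeats and no protease domain, 6 were measured and 0 passed the test, with a median log2 fold change of −0.21. Leaving out 1 library gave medians from −0.61 (without reporter- library 3) to 0.16 (without reporter+ library 3). *Adamtsl4*, whose protein binds fibrillin microfibrils, had 4.76 and 3.02 in reporter+ and 4.64 and 3.42 in reporter- libraries. It was lower in libraries numbered 3 by over 1 in both populations (4.36% of all genes). *Adamtsl1* (3.23 and 2.75) and *Thsd4* (1.62 and 3.69) were higher there by over 1 (5.35% of all genes). *Thsd4* was at the low end of the scale (−6.10 to −2.40).

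Substrates were taken in 3 lists. Of the hyalectans, 3 of 4 were measured, 0 passed the test and the median log2 fold change was 0.15, which ran from −0.43 (without reporter- library 3) to 0.33 (without reporter- library 2) on leaving out 1 library. *Vcan*, the gene of versican, had 6.08 and 6.52 in reporter+ and 6.33 and 5.98 in reporter- libraries, and *Acan*, the gene of aggrecan, −1.09 and −4.91 against −1.62 and −4.89. Aggrecan transcripts were thus lower in libraries numbered 3, by −3.82 and −3.27. All 6 fibrillar procollagen genes were measured and 0 passed the test (median −0.089). *Col2a1*, the collagen of cartilage, had the only difference past 1 in size (−1.51, SE 1.57), beside 4.25% of all genes. It had 2.86 and −1.33 in reporter+ and 3.32 and 1.23 in reporter- libraries. *Col1a1* and *Col1a2*, the chains of bone collagen, had log2 fold changes of −0.12 and −0.056.

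Among 9 other reported substrates, 0 passed the test and the median was −0.17, which became 0.0017 with a pseudocount of 1 and ran from −0.20 (without reporter+ library 3) to 0.37 (without reporter+ library 2) on leaving out 1 library. The populations did not overlap for 3 of the 9, beside 15.7% of all genes. *Comp*, a substrate of ADAMTS12, had 8.09 and 7.97 in reporter+ and 7.06 and 7.53 in reporter- libraries (log2 fold change 0.74, SE 0.25). *Dcn*, the gene of decorin, had 7.47 and 8.49 against 6.67 and 6.51 (1.39, SE 0.39). *Thbs1*, a thrombospondin cleaved by ADAMTS1, had 6.66 and 6.80 against 8.19 and 7.80 (−1.26, SE 0.22). *Tfpi2*, a protease inhibitor at the low end of the scale, had −6.35 and −2.02 against −3.87 and −2.49 (−1.01, SE 1.61).

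Of 17 genes of metalloproteinases listed as possible targets of TIMPs or RECK, all were measured and 0 passed the test. Inhibition is not established for each of them. There were 10 higher and 7 lower, with a median log2 fold change of 0.040 (−0.032 without reporter- library 2 to 0.12 without reporter+ library 2). The 3 differences past 1 in size, beside 4.25% of all genes, were all secreted MMPs and all positive. The study lists *Mmp3* and *Mmp13* among its top upregulated genes from the same data. Since the list was chosen with earlier results known, its count is a description only. *Mmp9*, a gelatinase, had 3.21 and 3.89 in reporter+ and 2.18 and 1.41 in reporter- libraries (1.75, SE 0.37). *Mmp3*, stromelysin, was higher by 1.91 and 2.12 within the numbers, and *Mmp13*, the main collagenase of the mouse skeleton, by 1.19 and 1.19, although both overlapped between the populations across numbers. The macrophage list was higher in the same libraries although the sort took CD45- cells, and its part in the difference of *Mmp9* was not tested. *Adam12*, a membrane sheddase, was lower without overlap (−0.36, SE 0.31). The membrane protease gene *Mmp14*, whose product both TIMP2 and RECK bind, was even at 6.11 and 6.40 in reporter+ and 6.18 and 6.37 in reporter- libraries. *Adam17*, a sheddase inhibited by TIMP3, differed by 0.11 (SE 0.19).

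Among 7 genes for the activation, cofactors and clearance of ADAMTS proteases, 0 passed the test and the median was 0.071 (−0.25 without reporter+ library 3 to 0.13 without reporter+ library 2). *Pcsk5* and *Pcsk6*, proprotein convertases, had the largest differences, at 1.08 (0.79 and 1.36 within numbers 2 and 3) and −0.83 (−0.58 and −1.07), both with overlap between the populations. *Sdc4*, a syndecan that takes part in the activation of ADAMTS5, was higher without overlap, at 7.39 and 7.18 in reporter+ and 7.04 and 7.02 in reporter- libraries (0.25, SE 0.18). *Lrp1*, the endocytic receptor that clears ADAMTS5 and TIMP3, had a log2 fold change of 0.0094 (SE 0.31), and *Furin*, the convertase that activates many ADAMTS proenzymes, had −0.093 (SE 0.19). Over all 9 lists, the synapsin genes included, 65 of 71 genes were measured in all libraries. Of these, 0 had an adjusted p under 0.05 and 4 an unadjusted p under it (*Comp*, *Dcn*, *Thbs1* and *Mmp9*), beside 0.909% of all genes. Without regard to the test, 5 were higher and 3 lower in reporter+ cells without overlap, where the shares over all genes were 7.59% and 8.1%, and 5 were above 1 and 5 below −1, where they were 2.38% and 1.87%. The lists were chosen with earlier results of these data known, so that these counts are a description.

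**Figure D4:**
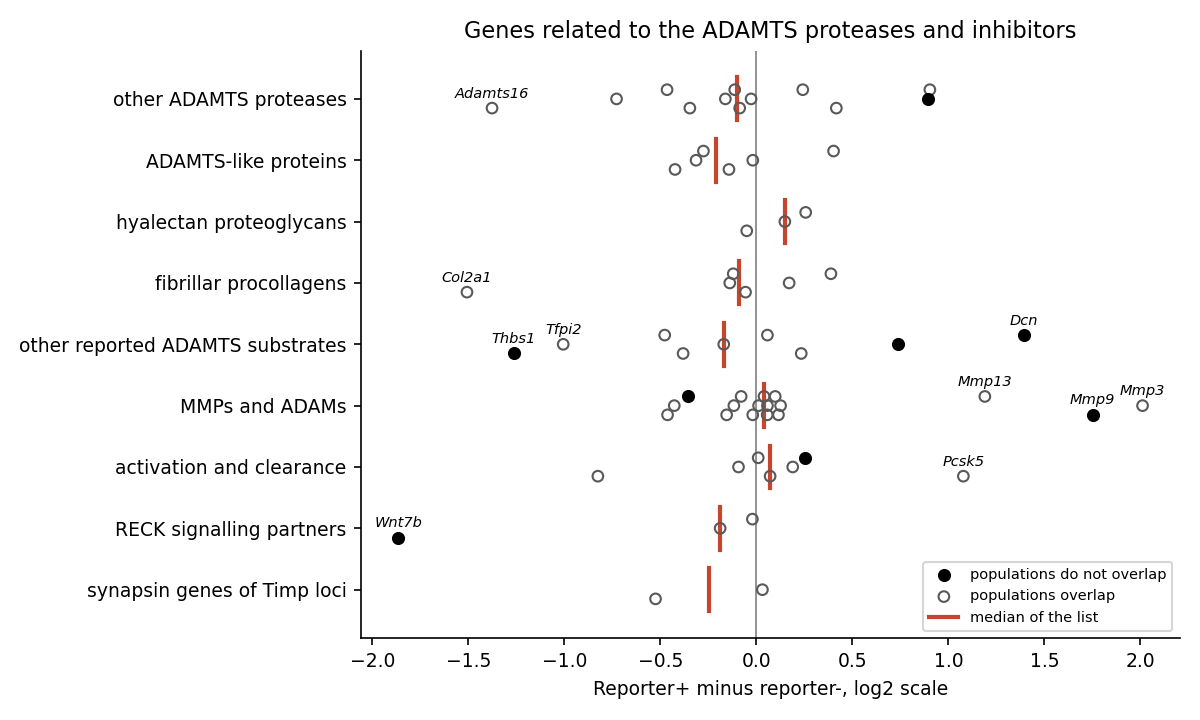
Log2 fold change between the populations (horizontal axis) of the genes related to the proteases and inhibitors, grouped by list, with filled points where the populations do not overlap and a red line at each median. List medians lie between −0.25 and 0.15, and the points farthest from 0 are *Mmp3* at 2.01 and *Wnt7b* at −1.86.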

How the data were processed

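Total RNA of 2 PDGFRα reporter+ and 2 PDGFRα reporter- libraries was analyzed. The authors deposited 1 quantile-normalized log2 value per gene symbol and library, blank where no signal was found. The submitters' processing notes name bcl2fastq 2.17.1.14, Partek 7.0 and the build GRCm38.p6. The aligner, counting, annotation, filters and depth are not given in the sources used here. Quantile normalization gives every library the same distribution, so that a difference is relative to the other genes.

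The 10 genes and all lists were chosen with earlier results of these data known. The test was limma (version 3.58.1, R version 4.3.3) on every gene without a blank (lmFit, eBayes with a trend, two-sided, all 4 libraries, no block), adjusted by Benjamini-Hochberg over 14415 genes at a threshold of 0.05, and the model was checked on values drawn from a known answer. The p-values measure the spread between these pools only. Named are the 10 genes, list genes whose populations do not overlap or that differ by over 1, other list genes as examples, and genes overlapping the 10. *Adam17*, *Mmp14*, *Lrp1*, *Furin* and the other examples were chosen after their values were seen. Lists covered other ADAMTS and ADAMTS-like genes, 3 kinds of substrate, metalloproteinases, activation and clearance, RECK partners, the synapsin genes, and markers of stromal cells, macrophages, endothelium, mural cells, chondrocytes and osteoblasts. Positions are from GENCODE M21 (GRCm38), which held all 10 genes, and promoters from RefSeq. Python 3.11.15, numpy 2.4.6, pandas 2.3.3, scipy 1.17.1 and matplotlib 3.10.9 were used. Alternatives were a block, centering, a filter, a pseudocount of 1, moderation without a trend, filled blanks and leaving out each library.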

Additional observations from a re-analysis of the deposited data

How the results depend on the processing

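All 10 log2 fold changes kept their sign, and none passed the test, under the replicate block, centering, the filter on low values (without *Timp4*), the pseudocount, moderation without a trend and filled blanks. With the pseudocount *Timp4* had −0.31 instead of −0.72. Leaving out 1 library also unbalances the library numbers. The sign of *Adamts5* and *Timp1* held in all 4 such fits (0.036 to 0.69 and 0.11 to 0.47). The other 8 genes changed sign in 2 of them, with ranges of *Adamts1* −0.35 to 0.88, *Adamts2* −0.47 to 0.39, *Adamts4* −0.33 to 0.70, *Adamts12* −0.91 to 0.89, *Timp2* −0.80 to 0.18, *Timp3* −1.99 to 1.13, *Timp4* −2.54 to 1.10, *Reck* −0.12 to 0.19. In these fits the lone library is assumed to vary like the other population, and 4 to 7 of the 10 genes did not overlap, beside 1 with all libraries, where the shares over all genes were 55.7% to 60.3% and 15.7%. The count of 5 genes with one sign in both numbers held in each setting that could give it. A block or another moderation does not bear on either count.

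The labels do not say that libraries of one table number were paired. Across genes, deviations from the population means correlated at 0.681 between libraries of one number. With the number as a replicate block, 29 of 14415 genes had an adjusted p under 0.05 in limma instead of 0 (913 and 131 at an unadjusted p under 0.05), among them 0 of the 10 genes and 3 of the list genes, *Mmp3* and *Mmp13* (higher) and *Thbs1* (lower). The lowest adjusted p of the 10 genes was then 0.446, for *Adamts5*. In the block model without a trend, added after seeing the data, the counts were 0 of all genes (941 at an unadjusted p under 0.05) and 0 of the list genes. Of 98 recomputed list medians 6 moved by more than the spread between libraries, all on leaving out a library. The medians of 8 of the 9 lists changed sign when some library was left out, all but that of the procollagens (−0.096 to −0.023). Their ranges were −0.64 to 0.65 (other ADAMTS), −0.61 to 0.16 (ADAMTS-like), −0.43 to 0.33 (hyalectans), −0.20 to 0.37 (other substrates), −0.032 to 0.12 (metalloproteinases), −0.25 to 0.13 (activation and clearance), −1.39 to 0.25 (RECK partners) and −0.82 to 0.33 (synapsins). The depth of the libraries is unknown, and 2 libraries per population limit what could be detected.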
